A study of Mus musculus with 16 samples.

Results

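The genes described are the aminoacyl-tRNA synthetases, 34 of the 22180 genes with a probe set of their own on the arrays. They were taken as every gene whose single annotated symbol names a synthetase of either compartment, each read through the brightest of its probe sets. Of these, 18 encode cytosolic enzymes and 16, with symbols that end in 2, encode mitochondrial enzymes. All 34 passed the filter on dim signals, which left 16760 genes for testing. Aars has only a probe set shared with Exosc6, and Dars has no listed probe set of its own, so they were not analysed here.

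The mice were C57BL/6, and the cells were regulatory T cells (Treg cells), a CD4+ T cell type that keeps other immune cells in check. They came from spleen and peripheral lymph nodes and were sorted as CD4+ and positive for a Foxp3-YFP reporter. The 4 groups of 4 arrays were Atg7+/- cells (from Atg7+/flFoxp3-Cre mice) and Atg7-/- cells (from Atg7fl/flFoxp3-Cre mice), each from untreated mice and from mice injected intraperitoneally with rapamycin, an inhibitor of the kinase mTOR, at 4 mg per kg daily for 5 days. All 4 groups carried Foxp3-Cre, which deletes floxed DNA in cells that express Foxp3, had at least 1 floxed Atg7 allele, and were stimulated for 4 h with antibodies to CD3 and CD28 bound to the plate, so no group was unstimulated or free of Cre. The labels do not say that replicates came from separate mice. A p-value here weighs a difference against the spread of arrays within groups, some or all of which may be technical. That spread was shared over the 4 groups and moderated with all genes tested.

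An aminoacyl-tRNA synthetase joins an amino acid to its tRNA, the step that supplies ribosomes with charged tRNA. Cells hold a cytosolic set for nuclear-encoded messages and a mitochondrial set, also encoded in the nucleus, for the few proteins made inside mitochondria; Gars and Kars each encode both forms of their enzyme and were counted as cytosolic here. Several cytosolic enzymes sit together in the multi-synthetase complex, held by the scaffold proteins Aimp1, Aimp2 and Eef1e1. The transcription factor Atf4, which is induced when amino acids are short, is known to raise the transcription of many cytosolic synthetase genes, and T cells raise protein synthesis when their antigen receptor is stimulated.

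As a description, the bases around the start sites were searched for the motif of the amino acid response element that Atf4 binds with C/EBP partners. Windows from 250 bases before to 50 bases after the start site were available from RefSeq (build GRCm38.p6) for 25 of the 34 genes, 11 cytosolic and 14 mitochondrial. The letters TGATGNAA, searched on both strands, were present in the windows of Yars, Gars, Iars and Tars. That is 4 of 11 cytosolic and 0 of 14 mitochondrial genes searched. They were present in 3.97% of all 32851 windows, a share taken without leaving out a chromosome. Each sequence runs 5′ to 3′ on the gene's own strand, with the match in capitals; it reads in the opposite orientation in Gars, Iars and Tars.
Yars (chr4:129189895-129189924, plus strand): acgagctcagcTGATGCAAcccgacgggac
Gars (chr6:55037945-55038000, plus strand): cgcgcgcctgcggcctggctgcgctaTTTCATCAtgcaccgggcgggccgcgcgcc
Iars (chr13:49682126-49682155, plus strand): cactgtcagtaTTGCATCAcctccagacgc
Tars (chr15:11399659-11399699, minus strand): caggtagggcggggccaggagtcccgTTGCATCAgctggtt
A match is a description of these letters and does not show that a factor binds there. The part of the motif in the differences below was not tested, and Iars, which has a match, was called in no comparison.

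The letters CACGTG, the E-box that Myc binds with Max and that reads the same on both strands, were present in 7.15% of all windows. Among the synthetases searched they were found for Farsb, Iars and Tars of the cytosolic set and for Ears2 of the mitochondrial set. Farsb and Ears2 alone are shown, picked with their results known, since Farsb differed between the genotypes and Ears2 rose with rapamycin. The part of the E-box in these differences was not tested.
Farsb (chr1:78488905-78488962, minus strand): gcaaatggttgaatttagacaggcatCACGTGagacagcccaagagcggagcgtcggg
Ears2 (chr7:122067048-122067077, minus strand): cgcgaaggagccCACGTGtgtgtttctagt

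Values are log2 signals of whole probe sets, so a difference of 1 would be a 2-fold change, and levels of different genes were not set against each other. Between arrays, Pearson correlations over all genes tested were 0.973 to 0.994. Of 7 Treg markers, 7 lay above the dim threshold in every group, among them Foxp3 at 10.53 to 11.46 and Il2ra, the interleukin 2 receptor alpha chain, at 11.96 to 12.19. Cd4, on which the cells were also sorted, read 7.82 to 9.24. Its group means were 8.83 in Atg7+/- and 9.08 in Atg7-/- cells without rapamycin and 8.16 and 8.33 with it, and its part in the rapamycin differences below was not tested. The Atg7 probe set read 0.28 lower in Atg7-/- than in Atg7+/- cells without rapamycin and 0.30 lower with it (limma, adjusted p = 0.299 and 0.232); the part of the gene it reads relative to the deletion is not given in the sources used here, so it checks nothing. Replicate 3 of the rapamycin Atg7-/- group lay farthest from its group mean, with a root mean square deviation of 0.242 against 0.137 for the closest array.

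The first comparison asks what rapamycin did in cells of each genotype. Of the cytosolic synthetases, 5 of 18 fell and 0 rose in Atg7+/- cells, and 6 fell and 1 rose in Atg7-/- cells (limma, adjusted p under 0.05 over all genes tested). Mitochondrial synthetases went the other way where they were called: 3 of 16 rose in Atg7+/- cells and 4 in Atg7-/- cells, and 0 fell in either. Nars2 was among those called in both genotypes, by the brighter of 2 probe sets that disagreed, as given below. Among all 16760 genes, 6.03% were called higher and 8.11% lower in Atg7+/- cells, and 8.83% higher and 11.1% lower in Atg7-/- cells (14.1% and 20.0% in either direction). Brighter genes were called more often, and no cytosolic synthetase had a mean log2 signal under 7. Between 7 and 9, 12.4% of genes were called lower in Atg7+/- and 13.2% in Atg7-/- cells, and over 9, 14.9% and 16.4%. Under 7, where most mitochondrial synthetases lay, 5.10% and 7.12% were called higher. The median log2 difference of the cytosolic genes was -0.16 in Atg7+/- and -0.21 in Atg7-/- cells, against -0.03 and -0.04 over all genes, and that of the mitochondrial genes was 0.07 and 0.01. The 13 mitochondrial genes under 7 had negative medians, -0.09 and -0.08. Without regard to calls, 16 of 18 and 17 of 18 cytosolic genes had a negative difference, while the mitochondrial genes split into 9 positive and 7 negative in each genotype. In Atg7+/- cells 3 cytosolic genes had all rapamycin arrays below all untreated arrays and 0 had them above, and 6 mitochondrial genes had them above and 1 below. In Atg7-/- cells 9 cytosolic genes had them below and 1 above, and 2 mitochondrial genes had them above and 1 below. Of all genes, 9.64% lay above and 13.1% below without overlap in Atg7+/- cells (22.7% in all), and 8.76% and 11.6% in Atg7-/- cells (20.4% in all). In bulk RNA, fewer cells that express a gene and less of its RNA per cell cannot be told apart. The difference between compartments was not itself tested.

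**Figure D1:**
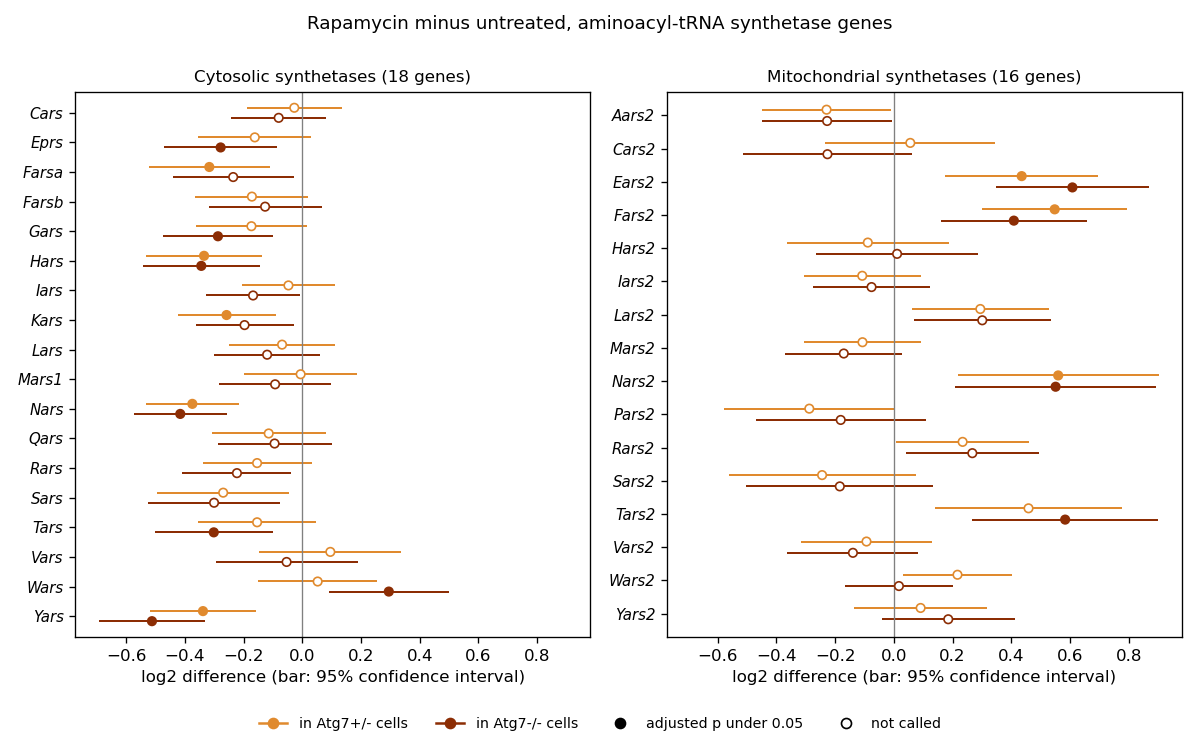
Log2 difference of rapamycin over untreated cells (x axis) for each of the 34 synthetase genes (y axis), cytosolic on the left and mitochondrial on the right, in both genotypes, with 95% confidence intervals from the limma fit as bars and filled points for adjusted p under 0.05. Most cytosolic points lie left of 0, with Wars of Atg7-/- cells filled on the right, and the filled mitochondrial points all lie on the right.

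Among cytosolic enzymes, Yars, which charges the tyrosine tRNA, had the smallest adjusted p of any synthetase. Its log2 signals, in replicate order, were 7.15, 7.05, 7.30 and 7.19 in untreated Atg7+/- cells, 6.78, 6.78, 6.93 and 6.85 in rapamycin Atg7+/- cells, 7.57, 7.53, 7.43 and 7.54 in untreated Atg7-/- cells and 6.83, 7.04, 6.97 and 7.18 in rapamycin Atg7-/- cells. In both genotypes every rapamycin array was below every untreated array. Yars fell by 0.34 on the log2 scale (SE 0.0863, adjusted p = 0.0147) in Atg7+/- cells, a 1.26-fold change, and by 0.51 (adjusted p = 0.000621), or 1.43-fold, in Atg7-/- cells. The first of these calls was lost without untreated Atg7+/- replicate 3 (adjusted p = 0.0519). Of all genes tested, those whose signals over the 16 arrays were most like those of Yars were Hk2 (hexokinase 2), H2bc3 (a histone gene, which can share probes with its relatives), Slc9b2, Cand1 and Hccs, with Pearson r from 0.94 to 0.97. As a description, with arrays set as deviations from their group mean the r values were 0.56 to 0.84.

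Nars encodes the asparaginyl-tRNA synthetase. Nars read 10.37, 10.43, 10.43 and 10.28 in untreated and 9.95, 9.95, 10.08 and 10.04 in rapamycin Atg7+/- cells, and 10.55, 10.51, 10.59 and 10.57 in untreated and 10.17, 10.01, 10.24 and 10.15 in rapamycin Atg7-/- cells. The untreated and rapamycin arrays did not overlap in either genotype. The falls of 1.30-fold in Atg7+/- cells (log2 -0.37, SE 0.0751, adjusted p = 0.0037) and 1.33-fold in Atg7-/- cells (log2 -0.42, adjusted p = 0.00103) both held under all 9 alternative settings and without any 1 of the 16 arrays.

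Hars, the histidyl-tRNA synthetase, was the third cytosolic gene that fell in both genotypes. Its signals were 9.22, 9.22, 9.33 and 9.08 in untreated and 8.81, 8.78, 8.99 and 8.93 in rapamycin Atg7+/- cells, and 9.45, 9.61, 9.60 and 9.54 in untreated and 9.16, 8.99, 9.42 and 9.25 in rapamycin Atg7-/- cells. Again no rapamycin array reached the lowest untreated array of its genotype. Hars fell by 0.33 (SE 0.0944, adjusted p = 0.0249) and by 0.34 (adjusted p = 0.0159) on the log2 scale. The Atg7+/- call was lost without untreated Atg7+/- replicate 1, 2 or 3 or rapamycin Atg7+/- replicate 1 or 2 (largest adjusted p 0.077), and the Atg7-/- call without rapamycin Atg7-/- replicate 2 (0.0587), with median centring (0.0674) or in a fit of those 2 groups alone (0.0563). Hars2, the mitochondrial gene that neighbours Hars in RefSeq, differed by -0.09 and 0.01 (adjusted p = 0.702 and 0.963).

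Farsa and Kars were called in Atg7+/- cells. Farsa encodes the alpha subunit of the cytosolic phenylalanyl-tRNA synthetase and read 8.33, 8.45, 8.39 and 8.24 in untreated, 7.87, 7.94, 8.30 and 8.03 in rapamycin Atg7+/- cells, 8.59, 8.56, 8.47 and 8.45 in untreated and 8.27, 8.17, 8.47 and 8.22 in rapamycin Atg7-/- cells. Rapamycin replicate 3 of each genotype was the highest of its group and overlapped the untreated arrays. Kars, the lysyl-tRNA synthetase of the multi-synthetase complex, read 9.60, 9.78, 9.81 and 9.75 in untreated, 9.35, 9.41, 9.61 and 9.54 in rapamycin Atg7+/- cells, 9.88, 10.01, 9.92 and 9.91 in untreated and 9.69, 9.71, 9.78 and 9.76 in rapamycin Atg7-/- cells. In Atg7+/- cells 1 rapamycin array overlapped the untreated Kars arrays by a small margin, and in Atg7-/- cells the groups were apart. Farsa fell 1.25-fold (log2 -0.32, SE 0.0981, adjusted p = 0.0387) and Kars 1.196-fold (log2 -0.26, SE 0.0794, adjusted p = 0.0374), while the differences in Atg7-/- cells were -0.24 and -0.20 (adjusted p = 0.0987 and 0.0886). Both calls were lost without rapamycin Atg7+/- replicate 1, 2 or 4 or untreated Atg7+/- replicate 2 or 3, that of Farsa also without untreated replicate 1 and that of Kars without untreated replicate 4 (adjusted p up to 0.12 for Farsa and 0.112 for Kars). They were lost as well with median centring (0.0593 and 0.0515) and in a fit of the 2 groups alone (0.0574 and 0.0666).

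Gars, Tars and Eprs were called in Atg7-/- cells. Gars, the glycyl-tRNA synthetase with the response element motif 30 bases before its start site, read 9.59, 9.44, 9.44 and 9.31 in untreated, 9.30, 9.18, 9.45 and 9.17 in rapamycin Atg7+/- cells, 9.75, 9.84, 9.64 and 9.79 in untreated and 9.41, 9.36, 9.54 and 9.58 in rapamycin Atg7-/- cells. Tars, the threonyl-tRNA synthetase, read 9.48, 9.48, 9.46 and 9.25 in untreated, 9.17, 9.19, 9.47 and 9.22 in rapamycin Atg7+/- cells, 9.75, 9.70, 9.58 and 9.95 in untreated and 9.46, 9.34, 9.50 and 9.47 in rapamycin Atg7-/- cells. For both genes the Atg7-/- groups did not overlap, and in Atg7+/- cells rapamycin replicate 3 sat among the untreated arrays. Gars fell by 0.29 (SE 0.0892, adjusted p = 0.0309) and Tars by 0.30 (SE 0.0956, adjusted p = 0.0342) in Atg7-/- cells, against differences of -0.17 and -0.15 in Atg7+/- cells (adjusted p = 0.211 and 0.31). Eprs, whose protein charges both the glutamate and the proline tRNA, fell by 0.28 (SE 0.0917, adjusted p = 0.0406) from 10.18 to 10.27 over the untreated arrays to 9.94 to 9.98 over the rapamycin arrays. In Atg7+/- cells its rapamycin arrays ran from 9.77 to 10.27.

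The Gars call was lost without untreated Atg7-/- replicate 1, 2 or 4 or rapamycin Atg7-/- replicate 1 or 2 (largest adjusted p 0.0875), and the Tars call without those arrays or rapamycin replicate 4 (up to 0.103). The Eprs call was lost without any 1 of the 8 Atg7-/- arrays, untreated Atg7+/- replicate 2 or rapamycin Atg7+/- replicate 2 (up to 0.0801). Median centring ended all 3 calls (0.0971 for Gars, 0.099 for Tars and 0.109 for Eprs). A fit of the 2 groups alone ended those of Gars and Tars (0.0672 and 0.0724), array weights that of Tars (0.0518), and quantile normalization, no dim filter and the removal of a gene length trend that of Eprs (0.0571, 0.0508 and 0.0505).

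Wars, the tryptophanyl-tRNA synthetase, was the cytosolic gene that rose. It read 8.77, 8.69, 8.85 and 8.66 in untreated and 8.65, 8.62, 9.04 and 8.87 in rapamycin Atg7+/- cells, and 9.02, 8.91, 8.81 and 8.74 in untreated and 9.10, 9.20, 9.19 and 9.18 in rapamycin Atg7-/- cells. The last of these groups lay above all arrays of the other groups. With rapamycin Wars rose 1.23-fold in Atg7-/- cells (log2 0.29, SE 0.0968, adjusted p = 0.0397) and differed by 0.05 in Atg7+/- cells (adjusted p = 0.765). The difference between these responses was 0.24 and did not pass (adjusted p = 0.798). The Atg7-/- call was lost without untreated replicate 2, 3 or 4 or rapamycin replicate 2, 3 or 4 (adjusted p up to 0.102), with median centring (0.0738) and in the fit of the 2 groups alone (0.0595). Wars is known as an interferon-inducible gene.

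The remaining cytosolic genes did not pass the test for rapamycin in either genotype. Sars, the seryl enzyme, came near, with -0.27 and -0.30 (adjusted p = 0.102 and 0.0556), as did Rars, the arginyl enzyme, with -0.15 and -0.22 (0.266 and 0.0836). Iars, the isoleucyl enzyme that carries both motifs printed above, differed by -0.05 and -0.17 (0.729 and 0.127), the last with no overlap of the Atg7-/- groups. Lars, Mars1, Qars and Cars, for leucine, methionine, glutamine and cysteine, lay between -0.12 and -0.01. Vars, the valyl enzyme, was 0.10 higher in Atg7+/- and 0.05 lower in Atg7-/- cells (0.627 and 0.782).

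Grouped by structure, the 7 measured enzymes of the multi-synthetase complex (Eprs, Iars, Kars, Lars, Mars1, Qars and Rars) had median rapamycin differences of -0.11 in Atg7+/- and -0.17 in Atg7-/- cells, with 1 call in each, and the 11 cytosolic enzymes outside it -0.17 and -0.29, with 4 and 5 that fell. Synthetases form 2 classes that are unrelated in fold. The 8 cytosolic class II enzymes (Farsa, Farsb, Gars, Hars, Kars, Nars, Sars and Tars) had medians of -0.26 and -0.29, all with a negative difference in both genotypes and 4 of 8 called lower in each. The 9 class I enzymes had medians of -0.05 and -0.09, with 1 called lower in each genotype, Yars, and 1 called higher, Wars. Eprs holds a domain of each class and was put in neither. Over all genes tested 8.11% and 11.1% were called lower and 6.03% and 8.83% higher. Of the genes over 9, 14.9% and 16.4% were called lower. Apart from Farsa and Farsb, the class II genes had mean log2 signals over 9, as did Iars, Lars and Rars alone of class I. Cytosolic genes over 9 had medians of -0.17 and -0.28, and those between 7 and 9 -0.07 and -0.09. No difference between these groups was tested, nor was the part of signal level.

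Of the mitochondrial enzymes, Fars2, which charges the phenylalanine tRNA in mitochondria, had the smallest adjusted p in Atg7+/- cells. It read 6.72, 6.24, 6.48 and 6.30 in untreated and 7.28, 6.82, 6.83 and 7.005 in rapamycin Atg7+/- cells, and 6.76, 6.88, 6.84 and 6.79 in untreated and 7.10, 7.13, 7.28 and 7.41 in rapamycin Atg7-/- cells. All rapamycin arrays exceeded all untreated arrays of their genotype. Fars2 rose 1.46-fold in Atg7+/- cells (log2 0.55, SE 0.118, adjusted p = 0.00547), a call kept under all alternatives, and 1.33-fold in Atg7-/- cells (log2 0.41, adjusted p = 0.0206), a call lost without untreated Atg7-/- replicate 1 or rapamycin Atg7-/- replicate 4 (adjusted p up to 0.0689). Farsa, a subunit of the cytosolic enzyme for the same amino acid, had differences of opposite sign, as given above.

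Ears2 encodes the mitochondrial glutamyl-tRNA synthetase. The Ears2 signals were 5.57, 5.28, 5.49 and 5.12 in untreated and 5.63, 5.83, 5.91 and 5.83 in rapamycin Atg7+/- cells, and 5.10, 5.61, 5.21 and 5.25 in untreated and 5.67, 5.90, 5.95 and 6.09 in rapamycin Atg7-/- cells. Both pairs of groups were apart, although untreated Atg7-/- replicate 2 came close to the lowest rapamycin array. Ears2 rose 1.35-fold in Atg7+/- cells (log2 0.44, SE 0.124, adjusted p = 0.0262) and 1.52-fold in Atg7-/- cells (log2 0.61, adjusted p = 0.00252). The first call was lost without untreated Atg7+/- replicate 2 or 4 or rapamycin Atg7+/- replicate 2, 3 or 4 (largest adjusted p 0.0864), with quantile normalization (0.0799) and with median centring (0.0708); the second was kept under all alternatives.

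Nars2 and Tars2 charge the mitochondrial asparagine and threonine tRNAs. Tars2 read 7.19, 7.33, 7.27 and 7.24 in untreated and 7.81, 7.83, 7.67 and 7.55 in rapamycin Atg7+/- cells, and 6.89, 7.33, 7.06 and 6.601 in untreated and 7.52, 7.68, 7.12 and 7.89 in rapamycin Atg7-/- cells. The Atg7+/- groups were apart, and in Atg7-/- cells rapamycin replicate 3 overlapped the untreated arrays. Tars2 rose 1.499-fold in Atg7-/- cells (log2 0.58, SE 0.151, adjusted p = 0.0114), a call lost in the fit of the 2 groups alone (0.0531), and in Atg7+/- cells its difference of 0.46 narrowly missed the threshold (adjusted p = 0.0506).

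Nars2 was read through 2 probe sets that disagreed. The brighter gave 6.49, 6.19, 6.46 and 6.61 in untreated and 7.06, 7.17, 6.99 and 6.76 in rapamycin Atg7+/- cells, and 6.25, 6.70, 6.67 and 6.21 in untreated and 7.30, 6.95, 6.51 and 7.27 in rapamycin Atg7-/- cells. By it Nars2 rose 1.47-fold in both genotypes (log2 0.56, SE 0.163, adjusted p = 0.0286, and log2 0.55, adjusted p = 0.0236), with the groups apart in Atg7+/- cells only. The dimmer probe set differed by -0.16 and 0.03, and with the mean of both probe sets neither call remained (adjusted p = 0.22 and 0.0588). The calls were also lost without untreated Atg7+/- replicate 2 or 3 or rapamycin Atg7+/- replicate 1, 2 or 3 (up to 0.0895), without untreated Atg7-/- replicate 1 or 4 or rapamycin Atg7-/- replicate 1 or 4 (up to 0.0776), and for Atg7-/- cells in the fit of the 2 groups alone (0.0653).

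The other mitochondrial genes did not pass for rapamycin. Lars2, the leucyl enzyme, came closest with 0.29 and 0.30 (adjusted p = 0.0844 and 0.0634), followed in Atg7-/- cells by Rars2 with 0.27 (0.0867). On the negative side, Pars2, Sars2 and Aars2, for proline, serine and alanine, differed by -0.29, -0.24 and -0.23 in Atg7+/- cells and by -0.18, -0.18 and -0.23 in Atg7-/- cells, with adjusted p from 0.134 to 0.415. Cars2, Hars2, Iars2, Mars2, Vars2, Wars2 and Yars2 lay between -0.23 and 0.22 in both genotypes. The compartments also differ in brightness, since 13 of the 16 mitochondrial probe sets and 0 of the 18 cytosolic ones had a mean log2 signal under 7. Those 13 had median rapamycin differences of -0.09 in Atg7+/- and -0.08 in Atg7-/- cells. Between 7 and 9, the 8 cytosolic genes had medians of -0.07 and -0.09 and the 3 mitochondrial genes 0.23 and 0.27, and the 10 cytosolic genes over 9 had -0.17 and -0.28. All genes tested had medians of -0.03 and -0.05 under 7, -0.03 and 0.00066 between 7 and 9, and -0.05 and -0.03 over 9. The part of signal level in the result was not tested beyond these values.

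**Figure D2:**
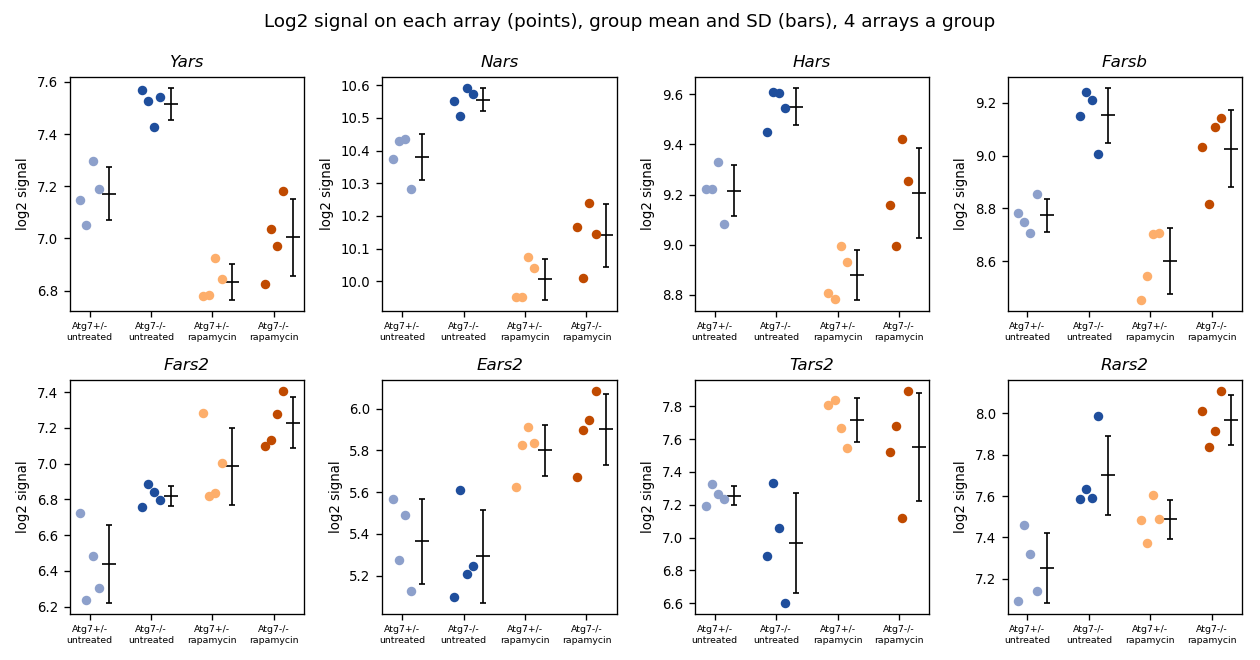
Log2 signal (y axis) on each of the 16 arrays, shown as points by group along the x axis, for 4 cytosolic and 4 mitochondrial synthetase genes described in the text, with the mean and SD of each group of 4 as bars. Yars, Nars and Hars sit lower in the rapamycin groups of both genotypes, Ears2 and Fars2 sit higher there, Tars2 arrays overlap in Atg7-/- cells, and Farsb and Rars2 sit higher in Atg7-/- than in Atg7+/- groups.

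The second comparison asks how the synthetases differed between cells with and without an intact Atg7 allele. Few passed the test, and those that did were all higher in Atg7-/- cells: Farsb, Yars and Rars2 without rapamycin and Farsb, Wars and Rars2 with it, 3 of 34 each time. Over all genes tested, 1.75% were called higher and 1.39% lower without rapamycin (3.14% in all), and 1.91% and 1.33% with it (3.24% in all). These shares vary with signal level. Farsb, Yars, Wars and Rars2 had mean log2 signals between 7 and 9, where 2.94% of genes were called higher without and 4.24% with rapamycin. Under 7 the shares were 1.36% and 0.82%, and over 9 they were 1.84% and 4.60%. The median difference of the cytosolic genes was 0.19 without and 0.18 with rapamycin, positive for 16 of 18 genes each time, against 0.02 over all genes in either case. For the mitochondrial genes it was 0.03 and 0.08. Between 7 and 9 the order was reversed, with 0.16 and 0.18 for the 8 cytosolic and 0.24 and 0.34 for the 3 mitochondrial genes. The 13 mitochondrial genes under 7 had medians of 0.03 and 0.07, and the 10 cytosolic genes over 9 had 0.24 and 0.19. The part of signal level was not tested. Without rapamycin 11 of 18 cytosolic and 3 of 16 mitochondrial genes had all Atg7-/- arrays above all Atg7+/- arrays, which held for 8.17% of all genes, and with rapamycin 4 and 2 did, against 6.01%. None of the 34 had all Atg7-/- arrays below, which held for 5.97% of all genes without rapamycin and 3.76% with it (14.1% and 9.77% in either direction).

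**Figure D3:**
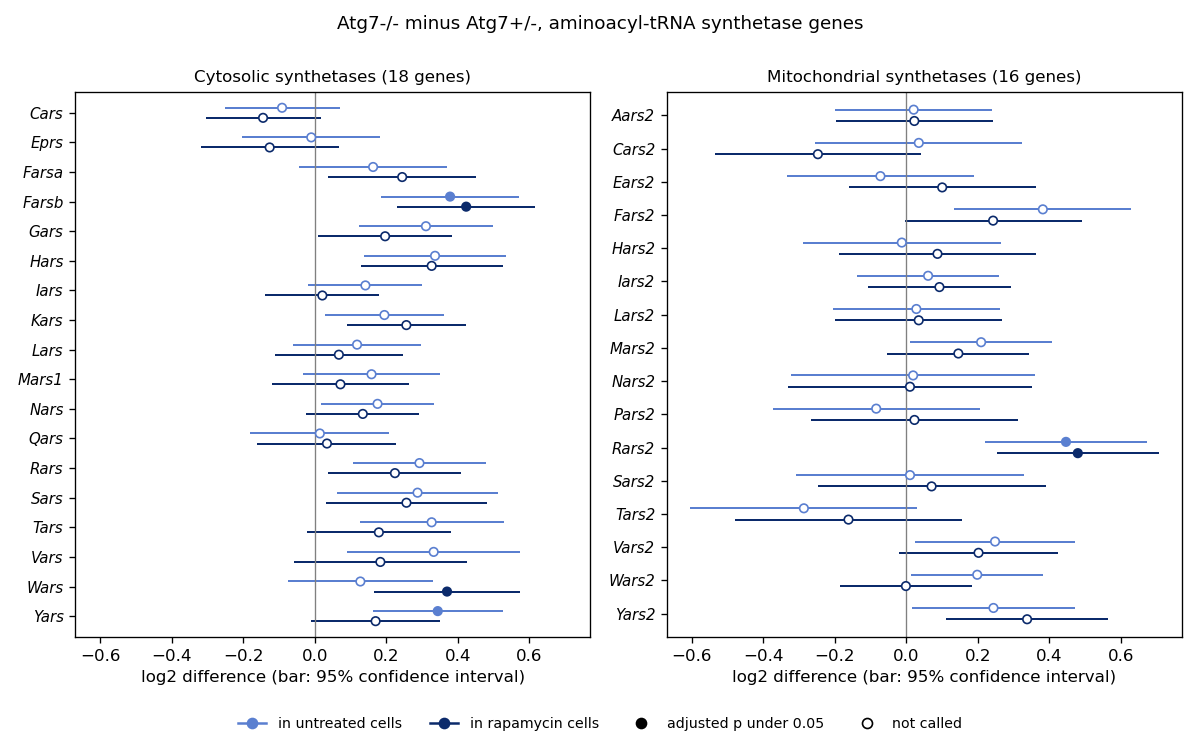
Log2 difference of Atg7-/- over Atg7+/- cells (x axis) for each of the 34 synthetase genes (y axis), cytosolic on the left and mitochondrial on the right, without and with rapamycin, with 95% confidence intervals from the limma fit as bars and filled points for adjusted p under 0.05. The cytosolic points lie right of 0 apart from those of Cars and Eprs, and the filled points are those of Farsb, Yars, Wars and Rars2.

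Farsb, the beta subunit of the cytosolic phenylalanyl-tRNA synthetase, was called in both settings. It read 8.78, 8.75, 8.71 and 8.85 in untreated Atg7+/- and 9.15, 9.24, 9.21 and 9.01 in untreated Atg7-/- cells, and 8.45, 8.54, 8.70 and 8.71 in rapamycin Atg7+/- and 9.03, 8.82, 9.11 and 9.14 in rapamycin Atg7-/- cells. The genotypes did not overlap in either setting. Farsb was 1.30-fold higher in Atg7-/- cells without rapamycin (log2 0.38, SE 0.0915, adjusted p = 0.0301) and 1.34-fold higher with it (log2 0.42, adjusted p = 0.0198). Rapamycin moved Farsb by -0.17 and -0.13, which did not pass (adjusted p = 0.228 and 0.349), and its partner subunit Farsa differed between genotypes by 0.16 and 0.24 (0.417 and 0.184).

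Rars2, the mitochondrial arginyl-tRNA synthetase, was the other gene called in both. It read 7.09, 7.46, 7.32 and 7.14 in untreated Atg7+/- and 7.59, 7.63, 7.59 and 7.99 in untreated Atg7-/- cells, and 7.48, 7.37, 7.61 and 7.49 in rapamycin Atg7+/- and 8.01, 7.83, 7.91 and 8.11 in rapamycin Atg7-/- cells. All Atg7-/- arrays lay above all Atg7+/- arrays of the same setting. Rars2 was 1.36-fold higher without rapamycin (log2 0.45, SE 0.107, adjusted p = 0.0292) and 1.39-fold higher with it (log2 0.48, adjusted p = 0.0232). Its cytosolic counterpart Rars differed by 0.29 and 0.22 (adjusted p = 0.0791 and 0.176).

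Yars and Wars were each called in 1 setting. Yars was 1.27-fold higher in untreated Atg7-/- than in untreated Atg7+/- cells (log2 0.34, adjusted p = 0.0366), with no overlap of the arrays given above, and with rapamycin the difference was 0.17 (adjusted p = 0.311). Wars was 1.29-fold higher in Atg7-/- cells with rapamycin (log2 0.37, SE 0.0968, adjusted p = 0.0441), and without it the difference was 0.13 (0.54). That a gene passed in 1 setting only does not show that the settings differ, and the tests of that difference are given below.

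Each of these 6 genotype calls was lost without any 1 of several arrays, though the differences stayed positive. Over all settings Farsb, Yars and Rars2 ran from 0.35 to 0.43, 0.30 to 0.39 and 0.35 to 0.52 without rapamycin. Farsb, Wars and Rars2 ran from 0.37 to 0.49, 0.31 to 0.45 and 0.43 to 0.54 with it. Without rapamycin, Farsb was lost without any 1 of the Atg7+/- arrays or Atg7-/- replicates 1 to 3 (adjusted p up to 0.09), Yars without untreated Atg7+/- replicate 1, 2 or 4, untreated Atg7-/- replicate 1, 2 or 4 or rapamycin Atg7+/- replicate 4 (up to 0.109), and Rars2 without untreated Atg7+/- replicate 1, 3 or 4 or untreated Atg7-/- replicate 4 (up to 0.102). Median centring ended all 3 (0.0845, 0.092 and 0.0601), and the fit of the 2 groups alone that of Rars2 (0.0557). With rapamycin, Farsb was lost without rapamycin Atg7+/- replicate 1 or 2 or rapamycin Atg7-/- replicate 3 or 4 (up to 0.0824), Rars2 without rapamycin Atg7+/- replicate 1, 2 or 4 or rapamycin Atg7-/- replicate 4 (up to 0.0979), and Wars without any 1 of 13 arrays, the exceptions being untreated Atg7-/- replicates 1 and 4 and rapamycin Atg7+/- replicate 3 (up to 0.171). The fit of the 2 groups alone ended these 3 (0.111, 0.071 and 0.157), and median centring, no dim filter and the replicate block each ended that of Wars (0.0571, 0.0579 and 0.0542).

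Several further genes had genotype differences of similar size that did not pass. Hars differed by 0.34 and 0.33 (adjusted p = 0.06 and 0.0646), with the genotypes apart in both settings. Without rapamycin Gars, Tars, Vars and Sars differed by 0.31, 0.33, 0.33 and 0.29 with no overlap (0.0645, 0.0701, 0.131 and 0.159), and Fars2 by 0.38 with no overlap (0.0857). Kars was apart in both settings, by 0.20 and 0.26 (0.202 and 0.0829), and Yars2 with rapamycin, by 0.34 (0.0908). The 8 cytosolic class II enzymes were positive in both settings, with medians of 0.30 and 0.25, and the 9 class I enzymes had medians of 0.14 and 0.07. Enzymes of the multi-synthetase complex had medians of 0.14 and 0.07 and cytosolic enzymes outside it 0.31 and 0.20. Cars was lower in Atg7-/- cells by 0.09 and 0.14 and Tars2 by 0.29 and 0.16, none past the test (adjusted p from 0.338 to 0.639).

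Markers of CD8 T and NK cells moved with genotype and treatment. The mean log2 signal of the 8 measured markers ran from 4.58 to 4.77 in untreated Atg7+/-, 4.91 to 5.08 in untreated Atg7-/-, 4.38 to 4.57 in rapamycin Atg7+/- and 4.53 to 4.81 in rapamycin Atg7-/- cells, and 6, 7, 5 and 7 of the 8 lay above the dim threshold in these groups. The Foxp3 signal was 0.40 lower in Atg7-/- cells without rapamycin (adjusted p = 0.0355) and 0.35 lower with it (0.0662). The part of these markers in the synthetase differences was not tested.

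The rapamycin effect in Atg7-/- cells minus that in Atg7+/- cells was tested for each gene. None of the 34 synthetases passed, and 0 of 34 had an unadjusted p under 0.05. Over all genes 0% passed, with 1052 of 16760 at an unadjusted p under 0.05 (limma), and 0 also with the trend and robust options. The smallest adjusted p was that of Wars, 0.798. The 95% confidence intervals reached 0.22 to either side for Nars, the narrowest, and 0.48 for Nars2, the widest. These intervals are not adjusted for the number of genes tested, so a difference between genotypes had to exceed them to pass. The rapamycin comparisons share their untreated arrays with the genotype comparisons, so that a high untreated Atg7-/- group enters both.

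The median deviation of the 18 cytosolic genes from their overall means shows how single arrays behaved. Without rapamycin it was 0.00, 0.02, 0.03 and -0.06 in Atg7+/- cells and 0.17, 0.23, 0.17 and 0.17 in Atg7-/- cells. With rapamycin it was -0.30, -0.29, 0.01 and -0.18 in Atg7+/- cells and -0.03, -0.13, 0.04 and 0.05 in Atg7-/- cells. Untreated Atg7-/- arrays were thus above all others, and the lowest 3 were rapamycin Atg7+/- arrays, with replicate 3 of that group apart from them. Rapamycin Atg7-/- arrays overlapped untreated Atg7+/- arrays. Without rapamycin Atg7+/- replicate 3 the cytosolic median for rapamycin in Atg7+/- cells was -0.21. For the 16 mitochondrial genes the same medians ran from -0.20 to -0.03 in untreated Atg7+/-, -0.03 to 0.05 in untreated Atg7-/-, -0.02 to 0.01 in rapamycin Atg7+/- and -0.03 to 0.18 in rapamycin Atg7-/- cells.

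**Figure D4:**
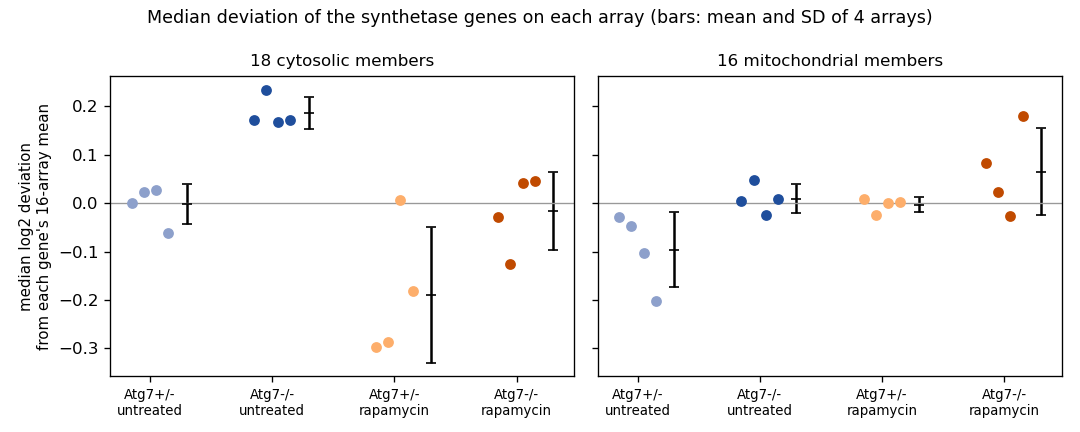
Median log2 deviation of the cytosolic and of the mitochondrial synthetase genes from each gene's mean over 16 arrays (y axis), 1 point per array, by group (x axis), with the mean and SD of each 4 arrays as bars. The cytosolic points of untreated Atg7-/- cells, 0.17 to 0.23, lie above all others, and rapamycin Atg7+/- cells hold the lowest 3.

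Leaving out single arrays moved the counts of called synthetases. For rapamycin in Atg7+/- cells 8 were called, and 3, 3, 4, 3 and 5 without untreated replicate 2, untreated replicate 3, rapamycin replicate 1, rapamycin replicate 2 and rapamycin replicate 4. For rapamycin in Atg7-/- cells 11 were called, and 6, 7, 7, 7, 7 and 6 without untreated replicates 1, 2 and 4 and rapamycin replicates 1, 2 and 4. Between untreated genotypes 3 were called, and 1 without Atg7+/- replicate 1, 2 or 3 or Atg7-/- replicate 1, 2 or 4, and 0 without Atg7+/- replicate 4. Between rapamycin genotypes 3 were called, and 0 without Atg7+/- replicate 1 or 2 or Atg7-/- replicate 4, and 1 without Atg7+/- replicate 4 or Atg7-/- replicate 3.

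The scaffold proteins of the multi-synthetase complex did not move together with rapamycin. Eef1e1, also called Aimp3, fell by 0.44 in Atg7+/- and by 0.41 in Atg7-/- cells (adjusted p = 0.00282 and 0.00286), while Aimp1 rose by 0.43 and 0.45 (0.0113 and 0.00538). Both were higher in Atg7-/- cells, Aimp1 by 0.40 and 0.43 (0.0414 and 0.0337) and Eef1e1 by 0.32 and 0.35 (0.0497 and 0.0326), without and with rapamycin. Aimp2 shares its probe set with another gene and was not analysed here.

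Among 11 tested genes of other steps of tRNA charging, 2 rose with rapamycin in Atg7+/- cells and 4 in Atg7-/- cells, and 0 fell, where 6.03% and 8.83% of all genes rose and 14.1% and 20.0% were called in either direction. Gatb, a subunit of the mitochondrial amidotransferase that makes glutaminyl-tRNA from the glutamyl-tRNA that Ears2 supplies, rose by 0.52 and 0.57 (adjusted p = 0.00435 and 0.00145). Pstk and Sepsecs, which turn seryl-tRNA into selenocysteinyl-tRNA, rose by 0.65 and 0.52 in Atg7-/- cells (0.000993 and 0.00776), and Pstk by 0.46 in Atg7+/- cells (0.0141). Dtd1, which removes D-amino acids from tRNA, rose by 0.45 in Atg7-/- cells (0.0167). Of this list Ptrhd1 was called between genotypes, 0.48 higher in untreated Atg7-/- cells (0.0334).

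Of 18 mitochondrial transcription and translation factors, 2 and 4 rose with rapamycin in Atg7+/- and Atg7-/- cells and 0 fell; over all genes 6.03% and 8.83% rose, and 14.1% and 20.0% were called in either direction, so the count of calls is not apart from the background. Tfb1m and Tfb2m, mitochondrial methyltransferase-related factors of ribosome assembly and transcription, rose by 0.83 and 0.66 in Atg7+/- cells (adjusted p = 0.00102 and 0.000116) and by 0.82 and 0.71 in Atg7-/- cells (0.00065 and 3.02e-05). Tfam, which packages mitochondrial DNA, rose by 0.40 in Atg7-/- cells (0.0145), as did the translation factor Guf1, by 0.28 (0.0475). Mrrf, the mitochondrial ribosome recycling factor, was higher in Atg7-/- cells by 0.39 without and 0.51 with rapamycin (0.0326 and 0.0101). Between genotypes 16 of the 18 without and 17 with rapamycin had a positive difference. Their medians were 0.13 and 0.12, against 0.02 over all genes.

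Of 17 cytosolic translation factors, 1 rose and 2 fell in Atg7+/- cells and 2 rose and 2 fell in Atg7-/- cells, shares near the 14.1% and 20.0% called over all genes. The cap-binding factor Eif4e fell by 0.34 and by 0.31 (adjusted p = 0.00691 and 0.00721), the release factor Etf1 by 0.28 in Atg7+/- cells (0.0176), and the elongation factor 2 kinase Eef2k by 0.41 in Atg7-/- cells (0.0217). The elongation factor subunit Eef1b2 rose by 0.27 and 0.21 (0.0146 and 0.0404) and the helicase Eif4a1 by 0.42 in Atg7-/- cells (0.0265). None of the 17 was called between genotypes in either setting, where 6 and 4 had an unadjusted p under 0.05.

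Of 57 genes of tRNA processing and modification, 4 rose and 3 fell with rapamycin in Atg7+/- cells and 9 rose and 6 fell in Atg7-/- cells, with a median of 0.00 in both. Such counts are near the share over all genes, 14.1% called in Atg7+/- and 20.0% in Atg7-/- cells. Elp3, the catalytic subunit of Elongator, rose by 0.42 and 0.62 (adjusted p = 0.0116 and 0.000481), and Cdkal1, a tRNA methylthiotransferase, by 0.60 in Atg7+/- cells (0.00234), where the mitochondrial tRNA thiouridylase Trmu also rose, by 0.41 (0.0115). Osgep rose by 0.61 in Atg7-/- cells (0.00069). Adat2, a subunit of the tRNA adenosine deaminase, fell by 0.49 in Atg7+/- cells (0.0118), and Dus3l and Pop1 fell by 0.55 and 0.49 in Atg7-/- cells (0.000784 and 0.00878). Between genotypes 51 of 57 without and 52 of 57 with rapamycin had a positive difference, with medians of 0.16 and 0.18, against 9300 and 8988 of 16760 and a median of 0.02 over all genes. The 2 and 3 genes called higher are few, as over all genes, where 1.75% and 1.91% were. Among them Trmt5, a tRNA guanine methyltransferase, was higher by 0.60 and 0.58 (0.0129 and 0.0188), Dus1l by 0.40 without rapamycin (0.0173), and Trmt10a and Rpp38 by 0.54 and 0.54 with it (0.0346 and 0.0393).

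Of 35 listed genes of the amino acid response and of amino acid transport, 31 were tested, Atf4 itself among them. With rapamycin 9 fell and 2 rose in Atg7+/- cells, and 8 fell and 1 rose in Atg7-/- cells, where 8.11% and 11.1% of all genes fell and 6.03% and 8.83% rose. Their medians were -0.17 and -0.20, against -0.03 and -0.04 over all genes. Atf4 itself fell by 0.26 and by 0.28 (adjusted p = 0.042 and 0.025), from group means of 11.38 and 11.26 to 11.12 and 10.98. Psat1, an enzyme of serine synthesis, fell by 0.54 in both genotypes (0.00267 and 0.00159), and Sesn2, a leucine sensor upstream of mTOR complex 1, by 0.59 and 0.48 (0.0108 and 0.023). Ddit4 and the leucine transporter Slc7a5 fell by 0.80 and 0.45 in Atg7+/- cells (0.028 and 0.00884), and the glutamine transporter Slc38a1 and the serine enzyme Psph by 0.49 and 0.46 in Atg7-/- cells (0.000224 and 0.00882). Between genotypes only Psph was called, 0.45 higher in untreated Atg7-/- cells (0.0368), and the list had medians of 0.04 and 0.05. Atf4 differed between genotypes by -0.12 and -0.13 (0.492 and 0.415), and its part in the synthetase differences was not tested. Myc differed by 0.16 and 0.22 with rapamycin (0.258 and 0.0989) and by -0.09 and -0.03 between genotypes (0.689 and 0.918).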

How the data were processed

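Per the labels' protocols, 1 to 5 ng of total RNA of each of 16 samples was amplified and labelled for a gene array. The authors deposited log2 signals for 41345 probe sets; RMA and Partek 6.6 are named per the submitters' processing notes, without settings. The log base is not written in the file and was taken as 2, which every fold rests on. The genome build is not given in the sources used here. The same holds for the annotation version. Arrays give no read depth, so their number limits the precision.

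Of the probe sets, 23521 had 1 gene symbol in GEO's platform annotation, 1814 had several and 16010 were not listed. Genes were kept where the highest group mean exceeded 3.55, the 30th percentile of all values. Group means over the 16 arrays were compared with limma 3.58.1 in R 4.3.3 (lmFit and eBayes, 1 shared spread per gene, 12 residual and 5.64 prior degrees of freedom), with two-sided tests and Benjamini-Hochberg adjustment over the 16760 genes; SE is that of the moderated fit. The script was tested on simulated data. The members and gene lists were chosen with earlier results of these data known. Values of all arrays are given for the 14 called synthetases with the smallest adjusted p, and of each other list up to 4 called genes with the largest change per comparison are named, with Atg7, Foxp3, Atf4 and Myc; Eprs and the synthetases that were not called are members named beyond that. Promoter windows came from RefSeq, and those of synthetases on chromosome 18 were not searched. Alternatives were quantile normalization, median centring, the mean of probe sets, no dim filter, trend and robust options, array weights, the 2 compared groups alone, a replicate block, removal of a gene length trend, and each array left out in turn.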

Additional observations from a re-analysis of the deposited data

Results flagged for a closer look

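Among 144 groups of 4 arrays checked, 6 held an array whose gap to its nearest neighbour was large against the group's range; chance alone gives about 1 in 20. Rars read 10.55 in untreated Atg7-/- replicate 4, where the next array read 10.36, and 10.18 in rapamycin Atg7+/- replicate 3, where the next read 9.91. Tars read 9.25 in untreated Atg7+/- replicate 4, below the next at 9.46, and 9.47 in rapamycin Atg7+/- replicate 3, above the next at 9.22. Rars2 read 7.99 in untreated Atg7-/- replicate 4 against 7.63 for the next, and its genotype call was lost without that array. The cytosolic median deviation of untreated Atg7-/- replicate 2 was 0.23, above the next at 0.17. Causes were not tested.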

How the results depend on the processing

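No value of those described changed sign where it was called, under the 9 alternatives or without any 1 of the 16 arrays. Of 25 calls of synthetase genes, 5 were kept throughout (Nars and Fars2 for rapamycin in Atg7+/- cells, and Nars, Yars and Ears2 in Atg7-/- cells) and 20 were lost under at least 1. The 3 called between untreated genotypes became 0 with median centring, 7 with trend and robust options and 6 with array weights. The 3 called between rapamycin genotypes became 5 with trend and robust options and 0 in the fit of the 2 groups alone, and the mitochondrial median there moved from 0.08 to 0.16 with quantile normalization. The 8 called for rapamycin in Atg7+/- cells became 5 with median centring (2 higher, 3 lower), and the 11 in Atg7-/- cells became 6 (4 higher, 2 lower), or 5 (2 higher, 3 lower) in the fit of the 2 groups alone. The cause was not tested. That fit was not possible for the difference of the rapamycin effects, which needs all groups.

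Leaving out 1 array at a time gave 0 to 4 calls between untreated genotypes, 0 to 4 between rapamycin genotypes, 3 to 10 for rapamycin in Atg7+/- cells, 6 to 12 in Atg7-/- cells and 0 for the difference. The cytosolic medians ran from 0.17 to 0.21, 0.15 to 0.23, -0.21 to -0.12, -0.22 to -0.19 and -0.08 to -0.01 in that order, and the mitochondrial ones from 0.0035 to 0.097, 0.038 to 0.13, 0.022 to 0.13, -0.035 to 0.072 and -0.01 to 0.062.

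Replicate numbers were not taken to pair the arrays, since not every pair of arrays with the same number had deviations that correlated above 0.1: r ran from -0.0829 to 0.358. Between the rapamycin groups it was 0.24, 0.19 and 0.36 for numbers 1 to 3 and -0.066 for number 4, and 8 of 16 arrays matched best with an array of their own number, a hint of pairing from the data and not the design. With the replicate number as a block, the counts were 4, 2, 9, 12 and 0 in the same order.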
